A study of Mus musculus with 2 samples.

Results

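The genes described here encode subunits of the 5 enzyme complexes of oxidative phosphorylation. They were taken by gene symbol from the platform annotation (Nduf subunits of complex I without the Ndufaf assembly factors, Sdha to Sdhd of complex II, Uqcr genes of complex III, Cox5 to Cox8 genes of complex IV and Atp5 genes of complex V). The pattern found 82 of 19505 named genes, each measured by 1 probe set. By complex these were 35, 4, 8, 18 and 17 genes, with Ndufa4, now regarded as a complex IV subunit, and its paralog Ndufa4l2 counted in complex IV. The pattern left out Cox4i1, Cox4i2 and Ndufab1, which are given beside the members below. Subunits encoded by mitochondrial DNA were not analysed here.

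Gene expression was measured on 2 Affymetrix arrays, 1 per genotype. The WT array came from wild-type littermates. The other came from circKcnt2 knockout mice, in which intronic sequence required to form the circular RNA circKcnt2 had been removed by CRISPR/Cas9 on a C57BL/6 background. Both groups had received dextran sodium sulfate (DSS), which injures the gut epithelium. For DSS colitis in general the study's methods give mice of about 8 weeks that drank 3% DSS over 7 days, and the labels of these 2 samples give no age, dose or day. About 100000 group 3 innate lymphoid cells (ILC3s) per genotype had been sorted by a gate without lineage markers, with high CD90 and low CD45, and the labels do not state how many mice they came from.

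All values are log2 levels per probe set, and differences are circKcnt2-deficient minus WT. There were no replicates, so no difference has a replicate check and none was tested. Differences are described against those of all genes, and the number of arrays limits their precision. A gene counted as measured if it reached 2.73 on at least 1 array, a background level set from olfactory and vomeronasal receptor genes, which mainly serve sensory neurons. Of 19505 genes, 12504 (64.1%) reached it. The arrays differed in more than the targeted locus. Uty, which is Y-linked, was at 5.26 (WT) and 1.24 (circKcnt2-deficient), the latter below background. Defining markers also departed from the label. Of 12 measured ILC3 markers, 8 (WT) and 7 (circKcnt2-deficient) were above background, and Il23r, Il1r1, Ncr1 and Ccr6 were below it on both. All 11 measured T cell markers were above background, from 6.75 to 9.98 (WT) and from 7.08 to 10.16 (circKcnt2-deficient), although the gate had excluded lineage-positive cells. Fewer cells of a type and less RNA per cell cannot be told apart in such samples.

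Oxidative phosphorylation couples the oxidation of NADH and succinate to ATP synthesis across the inner mitochondrial membrane. Complex I (NADH dehydrogenase) and complex II (succinate dehydrogenase) pass electrons to ubiquinone, complex III (cytochrome bc1) passes them to cytochrome c, and complex IV (cytochrome c oxidase) reduces oxygen. Complexes I, III and IV pump protons, and complex V (ATP synthase) lets them flow back to make ATP. Lymphocytes are known to change their mitochondrial metabolism on activation. Many nuclear genes of these complexes are known targets of the transcription factors NRF1, GABPA (an ETS factor) and YY1.

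Promoter sequences were available for 69 of the 82 members in the RefSeq table of build GRCm38.p6, each from 250 bases before to 50 bases after a transcription start. Exact matches on both strands were sought to 3 motifs of 8 letters, GCGCATGC for NRF1, CCGGAAGT for ETS factors and AAGATGGC for YY1. Matches to different motifs overlapped in 0 of the member promoters. The NRF1 letters occurred in 10 of 67 members above background (14.9%), against 5.48% of all genes above background with a promoter and 3.05% of all promoters of this length. The YY1 letters occurred in 10 (14.9%), against 4.79% and 3.19%. The ETS letters occurred in 5 (7.46%), against 8.34% and 4.31%. A match is a description of the sequence and not evidence of binding.

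A palindromic NRF1 match, which reads as the motif on both strands and so spans 10 bases, lay wholly upstream of the start in 4 members. These are shown 5′ to 3′ on the coding strand because members with this identical site had both high and low differences in the values described below. Capitals mark the match. They are Atp5g2 (chr15:102671056-102671115, minus strand), Atp5k (chr5:108434416-108434475, minus strand), Ndufa11 (chr17:56717676-56717735, plus strand) and Cox6a1 (chr5:115349087-115349146, minus strand).
Atp5g2: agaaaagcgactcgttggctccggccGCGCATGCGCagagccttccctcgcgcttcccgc
Atp5k: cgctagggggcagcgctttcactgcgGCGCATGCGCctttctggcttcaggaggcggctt
Ndufa11: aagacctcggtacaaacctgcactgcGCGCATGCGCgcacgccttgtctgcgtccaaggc
Cox6a1: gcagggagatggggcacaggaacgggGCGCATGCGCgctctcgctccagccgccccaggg

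The last 100 bases before the start are shown for the members with the highest difference in complexes I and V, Ndufs4 (chr13:114388095-114388194, minus strand) and Atp5o (chr16:91931631-91931730, minus strand). Neither stretch holds any of the 3 motifs, so there are no capitals. The searched promoter of Ndufs4 does hold a YY1 match, which begins 35 bases after the start and so lies outside the stretch shown.
Ndufs4: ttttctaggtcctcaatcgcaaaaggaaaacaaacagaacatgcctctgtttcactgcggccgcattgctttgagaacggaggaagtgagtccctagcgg
Atp5o: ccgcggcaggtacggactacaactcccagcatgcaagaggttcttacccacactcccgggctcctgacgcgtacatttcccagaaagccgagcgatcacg

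To see whether the complexes differed between the arrays, the 80 members above background were compared first. Most subunit genes were higher on the circKcnt2-deficient array, typically by less than 1.5-fold. In all, 69 of 80 had a difference above 0 (86.3%), against 56.4% of all genes above background. Their median difference was 0.34, a 1.26-fold difference, whereas the median of all genes above background was 0.06. The middle 50% of members lay between 0.17 and 0.47, and that of all genes between -0.20 and 0.30. A difference of 0.32 or more was found in 42 members (52.5%), against 22.9% of all genes. In the other direction 4 members were lower by that much on the measured values, against 16.1%.

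Large differences were few. Only 9 members were at least 1.5-fold higher (11.3%), against 7.66% of all genes of any level, and 1 was at least 1.5-fold lower, against 5.21%. The 9 were Ndufs4, Ndufs1 and Ndufv2 of complex I, Uqcrb and Uqcrc1 of complex III, and Atp5o, Atp5k, Atp5c1 and Atp5g2 of complex V. The 1 lower member was Ndufa4l2. No member was at least 2-fold higher, although Ndufs4 came just under it. Few genes of any kind were, 139 of 12504 above background. After a loess correction of the difference on level, 4 of 80 members were at least 1.5-fold higher, against 7.04% of all genes. They were Ndufs4, Atp5o, Atp5k and Ndufs1. After this correction 62 of 80 members were higher at all, against 49.8% of all genes.

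**Figure D1:**
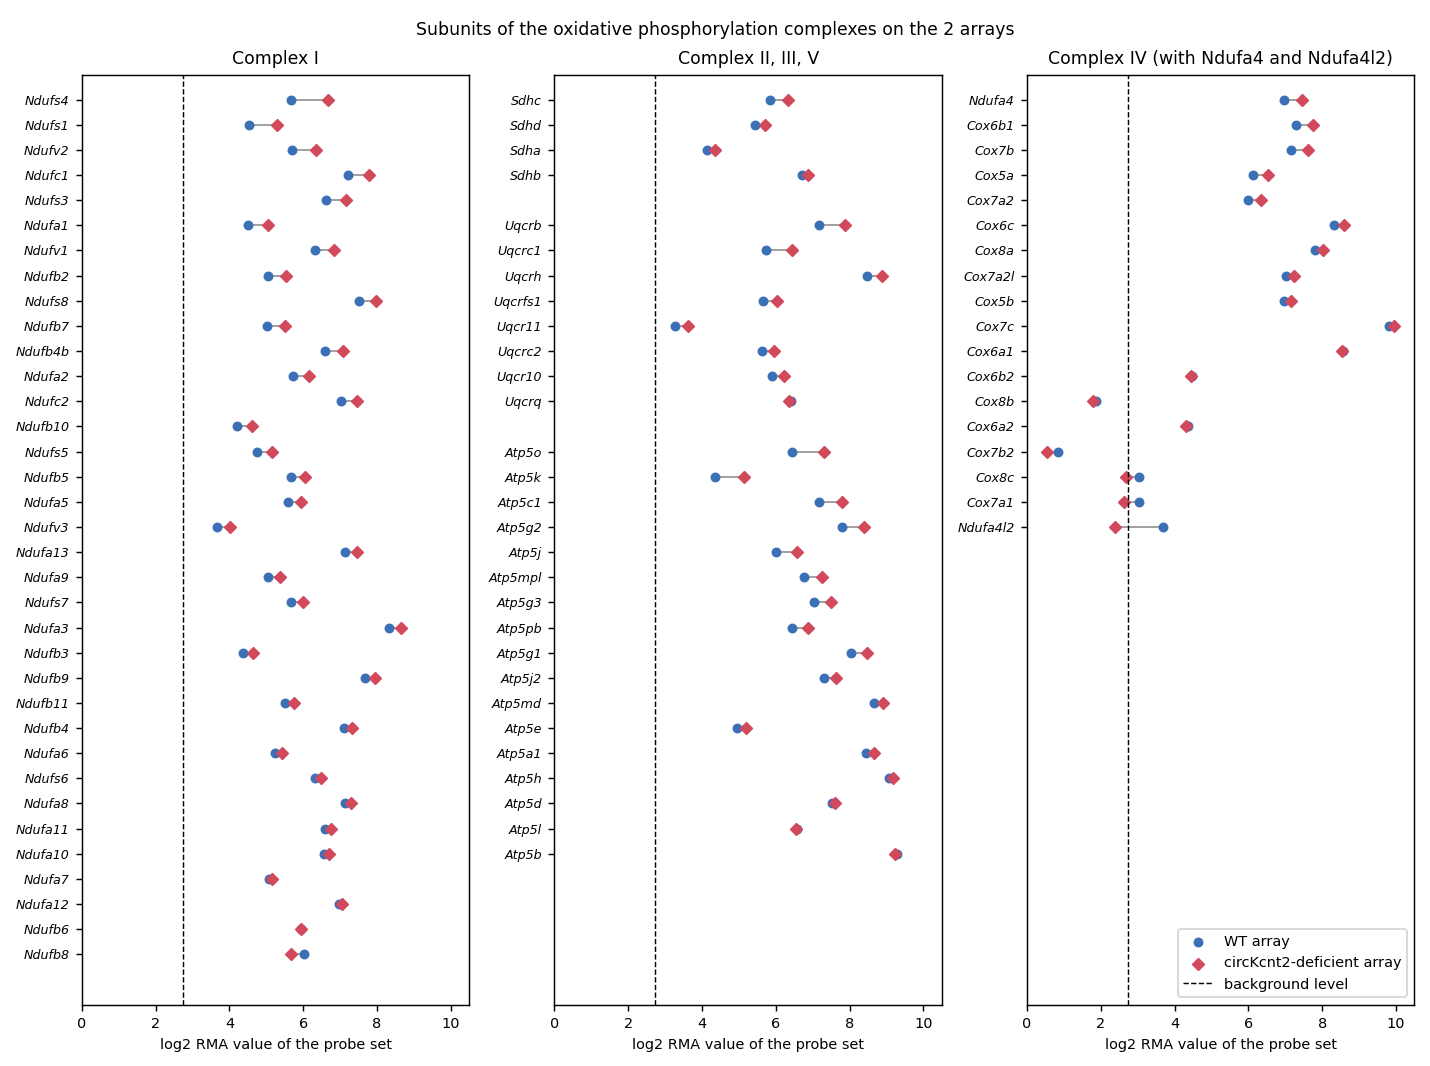
Log2 RMA value of each of the 82 subunit genes (x axis) on the WT array (blue circles) and the circKcnt2-deficient array (red diamonds), sorted by difference within each complex, with the background level of 2.73 as a dashed line. Most red points lie a short step to the right of the blue ones, and 6 of the 11 members above background with a lower value on the circKcnt2-deficient array are in complex IV.

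Differences moved with level over all genes, and most members sit at high levels. All genes above background were divided into 4 bins of equal size by mean level. The median difference of all genes ran from -0.16 in the lowest bin through 0.01 and 0.12 to 0.14 in the highest. The members' medians in these bins were -0.39 (4 members), 0.27 (6), 0.35 (18) and 0.35 (52). In the highest bin 47 of 52 members were above 0, against 74.3% of all genes there, and in the next bin 17 of 18 were, against 65.3%. The members in the 3 upper bins were therefore above genes of like level in their medians, and the 4 in the lowest bin were below. At least 1.5-fold higher were 7 of the 52 members in the highest bin, against 3.84% of all genes there. In the next bin 2 of 18 were, against 9.76%. In the lower bins 0 members were, against 9.85% and, in the lowest, 7.20%.

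**Figure D2:**
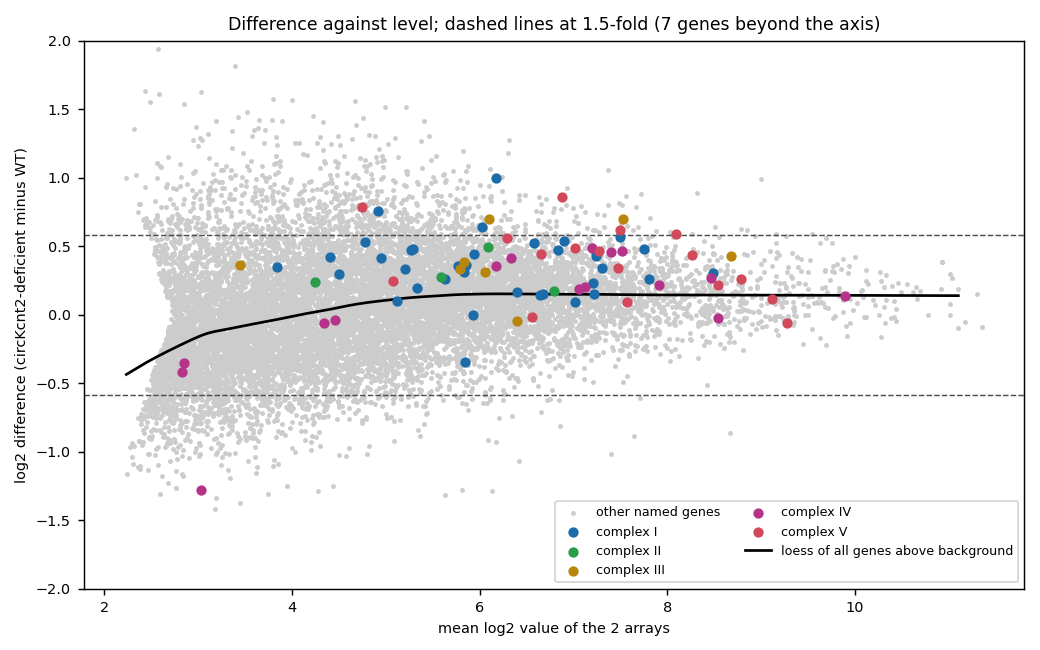
Log2 difference (circKcnt2-deficient minus WT, y axis) against the mean log2 value of the 2 arrays (x axis) for all genes above background (grey) and for the members, coloured by complex. The black line is the loess fit to all genes, dashed lines mark 1.5-fold, and 7 genes lie beyond the y axis.

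Complex I is the largest of the complexes, and 33 of its 35 genes were higher (94.3%), with a median difference of 0.35. Of all genes above background 56.4% were higher, with 65.3% and 74.3% in the next-highest and highest level bins. The catalytic core of complex I, conserved from bacteria, carries the flavin and the iron-sulfur clusters. All 6 measured core genes were higher, with a median of 0.53 and a range from 0.31 to 0.76, whereas 27 of 29 accessory genes were higher, with a median of 0.33. The middle 50% lay between 0.49 and 0.61 for core genes and between 0.16 and 0.43 for accessory genes, although the highest accessory gene exceeded every core gene.

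Among core genes, Ndufs1, the largest iron-sulfur subunit, was at 4.54 (WT) and 5.30 (circKcnt2-deficient), or 1.69-fold higher. The WT value comes first in each pair hereafter. Ndufv2, which carries an iron-sulfur cluster beside the flavin site, was at 5.71 and 6.35 (1.56-fold). Ndufv1, which binds NADH and flavin, was at 6.32 and 6.84 (1.44-fold). These 3 subunits form the NADH-oxidizing tip of the enzyme. The remaining measured core genes, Ndufs3 (6.63 and 7.17), Ndufs8 (7.51 and 7.98) and Ndufs7 (5.67 and 5.98), belong to the part that leads electrons to ubiquinone.

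The highest difference of any member was that of Ndufs4, an accessory subunit whose loss in mice is used as a model of Leigh syndrome. It was at 5.68 and 6.67, a difference of 1.00 that ranked 140 among 12504 genes above background. At the other end, the membrane-arm subunit gene Ndufb8 stood apart in complex I. It was at 6.02 and 5.67, a 1.27-fold lower value. Ndufb6, of the same arm, was at 5.93 on both arrays, and Ndufa12 was at 6.97 and 7.06. The remaining 25 complex I genes were all higher, by 0.10 (Ndufa7) to 0.56 (Ndufc1). These subunits surround the core and stabilize the enzyme. Ndufc1 (7.21 and 7.78) and Ndufc2 (7.02 and 7.45) lie where both arms meet, and Ndufa1 (4.52 and 5.04) is a small membrane subunit needed for assembly. Ndufb2 (5.05 and 5.53), Ndufb7 (5.03 and 5.50) and Ndufb10 (4.19 and 4.61) belong to the membrane arm, as do Ndufb8 and Ndufb6. By difference, these 5 membrane-arm genes ranked between 8 and 35 among the 35 genes of the complex. The differences were smaller for Ndufs6 (6.32 and 6.48), a zinc-binding subunit, for Ndufa10 (6.57 and 6.71), which has the fold of a nucleoside kinase, and for Ndufa8 (7.15 and 7.30). Ndufa9 (5.03 and 5.37), near the ubiquinone site, and Ndufa13 (7.13 and 7.47), also known as GRIM-19, were close to the median of the complex. Ndufb4 (7.09 and 7.33) and its close copy Ndufb4b (6.60 and 7.07) may share signal, since their probe sequences were not examined.

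Complex II, which also serves the tricarboxylic acid (TCA) cycle, had a median difference of 0.25, with all 4 genes higher, against 56.4% of all genes. Sdhc, a membrane anchor, was at 5.84 and 6.33 (1.41-fold). Sdhd, the other anchor, was at 5.45 and 5.72. The flavoprotein gene Sdha was at 4.13 and 4.36, and the iron-sulfur gene Sdhb at 6.70 and 6.88. None of these passed 1.5-fold.

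In complex III, 7 of 8 genes were higher (87.5%, against 56.4% of all genes), with a median of 0.37. Uqcrb, a small subunit near the ubiquinone site, was at 7.18 and 7.88 (1.62-fold). The core protein genes Uqcrc1 and Uqcrc2 were at 5.75 and 6.44 (1.62-fold) and at 5.63 and 5.96 (1.26-fold). Both stand on the matrix side of the enzyme. Uqcrfs1, the Rieske iron-sulfur protein, was at 5.65 and 6.03 (1.30-fold), and Uqcrh, the hinge protein, was at 8.46 and 8.89. The small subunits Uqcr11 (3.27 and 3.63) and Uqcr10 (5.90 and 6.21) were also higher. The exception was Uqcrq, another small subunit, at 6.41 and 6.37. The 2 genes past 1.5-fold on the measured scale, Uqcrb and Uqcrc1, fell just short of it after the loess correction, at 0.55 each.

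Complex IV stood lowest of the complexes, with a median of 0.20 over 16 genes above background. Of these, 10 were higher (62.5%, near the 56.4% of all genes) and 6 lower. This median depended on which genes were counted. The widely expressed subunits were mostly higher. Ndufa4 was at 6.95 and 7.44 (1.40-fold), Cox6b1 at 7.28 and 7.74 (1.38-fold) and Cox7b at 7.17 and 7.63 (1.38-fold). The 8 other widely expressed genes ran from -0.03 for Cox6a1, at 8.56 and 8.53, to 0.42 for Cox5a, at 6.13 and 6.54. Cox7a2 (5.99 and 6.35), Cox6c (8.33 and 8.60) and Cox8a (7.80 and 8.02) lay between them. Cox7c (9.82 and 9.96) and Cox5b (6.96 and 7.15), which binds zinc, differed less. The 8 include Cox7a2l (7.02 and 7.23), which joins complexes III and IV in supercomplexes and is not a subunit of complex IV itself.

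None of the 5 tissue-restricted isoforms of complex IV above background was higher on the circKcnt2-deficient array. In the lowest and next-lowest level bins, where these 5 lie, 35.4% and 50.5% of all genes were higher. Cox6a2, Cox7a1 and Cox8b are isoforms of heart and skeletal muscle, Cox6b2, Cox7b2 and Cox8c are known from testis, and Ndufa4l2 is induced by hypoxia. Cox7b2 (0.84 and 0.54) and Cox8b (1.86 and 1.80) were below background on both arrays. Cox6b2 was at 4.48 and 4.44 and Cox6a2 at 4.37 and 4.31, with hardly any difference, as for the widely expressed Cox6a1. Cox8c (3.03 and 2.67) and Cox7a1 (3.04 and 2.62) did not reach background on the second array, which makes them at least 1.23-fold and at least 1.24-fold lower. Their levels lie in the lowest bin, where the median of all genes was also negative. Ndufa4l2 was at 3.67 and 2.39, again under background on the second array and so at least 1.92-fold lower. Its mean level lies in that lowest bin too. Without these 7 isoforms and Cox7a2l, the median of complex IV was 0.31 and that of all 74 remaining members 0.35.

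Complex V had the highest median, 0.44, with 15 of 17 genes higher (88.2%, against 56.4% of all genes). Medians of its parts ran from 0.22 in the F1 part, the catalytic head with its central shaft, to 0.50 in the peripheral stalk. Atp5o, which encodes the oligomycin sensitivity protein that joins the stalk to the head, was at 6.45 and 7.30 (1.81-fold). The other genes of the peripheral stalk were Atp5j (6.01 and 6.57), Atp5pb (6.43 and 6.87) and Atp5h (9.06 and 9.17). The median of these 4 was 0.50. Atp5k, which encodes subunit e at the dimer interface, was at 4.35 and 5.13 (1.72-fold).

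Subunit c, which forms the rotating ring in the membrane, is encoded by 3 genes, and all were higher by similar amounts. Atp5g1 was at 8.05 and 8.48 (1.36-fold), Atp5g2 at 7.80 and 8.39, just past 1.5-fold, and Atp5g3 at 7.03 and 7.50 (1.38-fold). In the F1 part the picture was mixed, with a median of 0.22 over 5 genes. The gamma subunit gene Atp5c1, the shaft of the motor, was at 7.18 and 7.80 (1.54-fold). In contrast, the catalytic beta subunit gene Atp5b was at 9.30 and 9.24, and the alpha subunit gene Atp5a1 was at 8.43 and 8.65. Atp5d (7.52 and 7.61) and Atp5e (4.95 and 5.19) encode the delta and epsilon subunits. Atp5l, subunit g of the membrane part, was at 6.56 and 6.54, and the remaining 3 genes, all of small membrane proteins, were higher by 0.26 (Atp5md, at 8.65 and 8.91) to 0.48 (Atp5mpl, at 6.77 and 7.25). Atp5b and Atp5l were the only members of complex V that were not higher on the circKcnt2-deficient array.

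**Figure D3:**
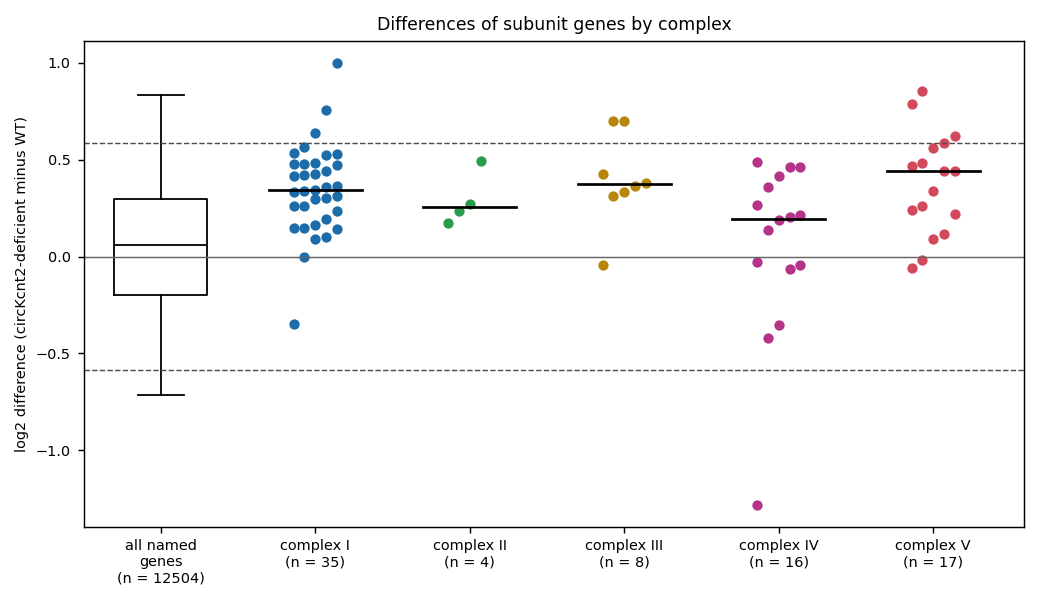
Log2 difference (circKcnt2-deficient minus WT) of each member above background by complex, with the median as a bar, beside a box for all genes above background (box, middle 50%; whiskers, central 95%). Medians of the 5 complexes run from 0.20 (complex IV) to 0.44 (complex V), and the lowest point is Ndufa4l2.

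The promoter motifs were then set beside these values. The 4 genes with the palindromic NRF1 site printed above had differences of 0.79 (Atp5k), 0.59 (Atp5g2), 0.15 (Ndufa11) and -0.03 (Cox6a1). Uqcrc1, where the same site begins 30 bases after the start and was not printed, had a difference of 0.70. The 10 members with NRF1 letters had a median of 0.18, the 10 with YY1 letters 0.34, the 5 with ETS letters 0.36 and the 43 with none of the 3 motifs 0.36. By count the order was another. The NRF1 letters were in 3 of 7 members at least 1.5-fold higher with a promoter (42.9%) and in 7 of 60 other members (11.7%), and any of the 3 motifs was in 57.1% and 33.3%. These are descriptions of few genes, with no test.

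Genes near the rule and other genes of the pathway were compared from fixed lists. Cox4i1, the common isoform of complex IV subunit 4, was at 7.23 and 7.37, whereas its hypoxia-related paralog Cox4i2 was at 3.50 and 2.69, the latter under background. Ndufab1, the acyl carrier subunit of complex I, was at 6.67 and 7.09. Cycs, which encodes cytochrome c, was at 8.04 and 8.25, and Atpif1, the inhibitor of ATP synthase, at 6.70 and 7.26. Apart from Cox4i2, these genes were higher, like most members.

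Assembly factors build the complexes but are not part of them. Of 13 complex I assembly factors above background, 8 were higher and 5 lower, with a median of 0.17. The share higher, 61.5%, was near the 56.4% of all genes above background. No factor passed 1.5-fold upwards, and Acad9 (5.79 and 5.07) passed it downwards. Ndufaf2 (4.01 and 4.54), Ndufaf3 (3.87 and 4.37) and Ndufaf7 (3.94 and 4.39) had the next largest differences. Of 26 assembly factors of complexes II to V, 18 were higher (69.2%), with a median of 0.14. The 3 that were at least 1.5-fold higher (11.5%, against 7.66% of all genes) all serve complex IV. Cox18, an insertase for a mitochondrially encoded subunit, was at 4.84 and 5.82 (1.96-fold), Cox15, a heme A synthesis enzyme, at 3.26 and 4.05 (1.73-fold), and Cox11, a copper chaperone, at 4.47 and 5.20 (1.66-fold). Tmem70, an ATP synthase assembly factor below background on the WT array, was at 2.50 and 3.08.

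Of 12 TCA cycle enzymes, 10 were higher (83.3%, against 56.4% of all genes), with a median of 0.20 and none past 1.5-fold. Most of these enzymes lie in the highest level bin, where 74.3% of all genes were higher, with a median of 0.14. Mdh2 (6.85 and 7.32), Dld (5.95 and 6.29), Idh3g (7.22 and 7.57) and Ogdh (6.77 and 7.09) had the largest differences of these enzymes. Of 10 regulators of mitochondrial biogenesis above background, 9 were higher (90%, against 56.4% of all genes), with a median of 0.19. Tfb2m, a mitochondrial transcription factor, was at 4.42 and 5.50, a 2.11-fold difference and the only one past 1.5-fold. Pprc1 (3.63 and 4.05) and Polrmt (4.34 and 4.67) were higher, and Ppargc1b was at 5.80 and 5.49. Ppargc1a, which encodes the coactivator PGC-1α, did not reach background on either array (1.47 and 1.07). The genes of the factors whose motifs were sought differed little, with Nrf1 at 6.52 and 6.56, Gabpa at 6.93 and 7.09 and Yy1 at 7.76 and 7.76.

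**Figure D4:**
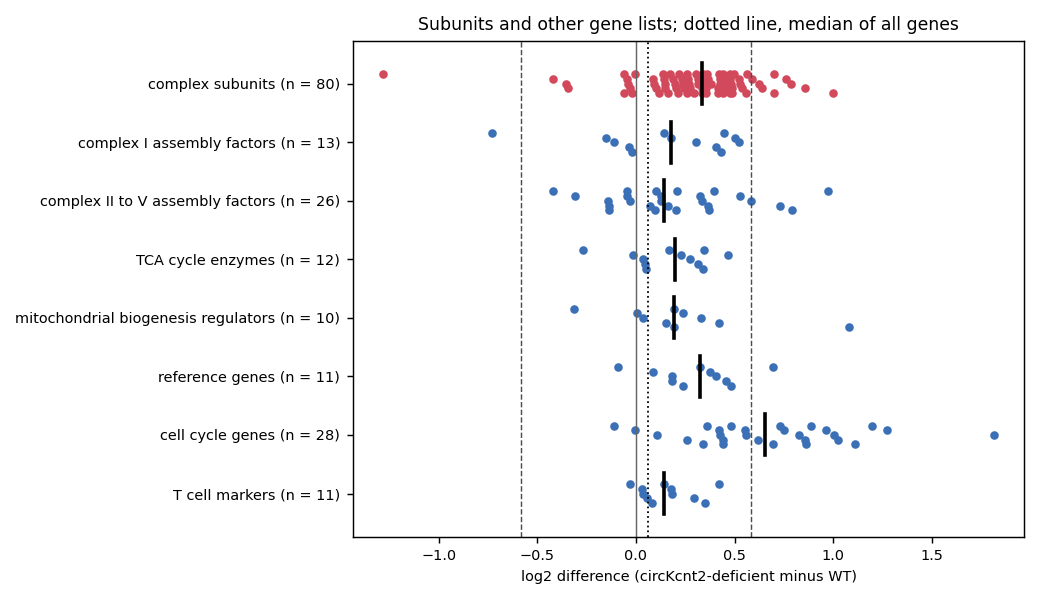
Log2 difference (circKcnt2-deficient minus WT, x axis) of each gene above background in the subunit group and in 7 other lists, with list medians as black bars, the median of all genes as a dotted line and 1.5-fold as dashed lines. The subunits have a median of 0.34, next to reference genes at 0.32, and cell cycle genes lie furthest right at 0.65.

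Other groups of genes were set beside the subunits, and their part in the result was not tested. Of all genes above background, 56.4% were higher and 7.66% at least 1.5-fold higher. Of 11 measured reference genes, 10 were higher, with a median of 0.32, close to the 0.34 of the members (1 of the 11, Sdha, is itself a member). Of 28 cell cycle genes, 26 were higher and 15 at least 1.5-fold higher, with a median of 0.65. Of 11 T cell markers, 10 were higher, with a median of 0.14 and none past 1.5-fold. These markers lie in the highest level bin, where the median of all genes was also 0.14 and 74.3% were higher. Their summed linear level was 6070 (WT) and 6619 (circKcnt2-deficient). The summed level of ILC3 markers was 1287 and 1274, with a median difference of -0.09 over 8 genes above background. Most of this sum comes from Thy1 (9.31 and 9.36), Id2 (8.40 and 8.39) and Il7r (7.86 and 7.70), so it says little about the other markers. Summed levels of B and plasma cell markers were 158 and 89.8 (5 of 6 above background on at least 1 array). The plasma cell gene Jchain was at 6.72 and 4.30, whereas the B cell receptor genes Cd79a (3.90 and 4.47) and Cd79b (3.91 and 4.87) were higher on the circKcnt2-deficient array. Myeloid markers summed to 61.1 and 63.5 (4 of 7 above background) and epithelial markers to 91.3 and 84.7 (4 of 8). In these 3 lists 1, 3 and 4 genes did not reach background on either array, among them Ms4a1, Itgax and Krt8.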

How the data were processed

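RNA of 2 samples, 1 per genotype, was measured on an Affymetrix mouse array. The labels name a Mouse Gene 2.0 protocol, whereas the identifiers are those of another mouse design. The deposited log2 values per probe set were made by the authors with Affymetrix Power Tools and RMA, per the labels (their versions are not given in the sources used here, nor whether other arrays entered the normalization). RMA brings arrays to nearly 1 distribution, so a shift of all genes would be hidden. The column medians were 3.27 (WT) and 3.22 (circKcnt2-deficient).

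Of 29129 probe sets, 19572 had 1 symbol in the platform annotation. Where a gene had several probe sets, their mean was taken (55 genes, none a member). Symbols of list genes were updated through RefSeq synonyms. For the background level, the higher value of each of 1412 olfactory and vomeronasal receptor genes was taken, and percentile 95 of these was used. A bound ("at least") is the fold against this level. With 1 array per group there was no test and p-values are left out. Counts past 1.5-fold, past a log2 difference of 0.32 and past 2-fold and medians were set beside those of all genes above background. Named members were those past 1.5-fold, the 3 highest and lowest of each complex, and complexes II and III. Also named were core, F1, ring and stalk subunits, restricted isoforms and members below background on exactly 1 array. Of each pathway list, up to 4 genes with the largest absolute difference were named. Other genes named were chosen after their values were seen. The alternatives were other floors, scalings, probe set rules, thresholds and memberships. Members and lists were chosen with earlier results of these data known. Calculations used Python 3.11.15, pandas 2.3.3 and statsmodels 0.14.6, and the counting step was tested on simulated data.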

Additional observations from a re-analysis of the deposited data

How the results depend on the processing

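No paired analysis was possible because each genotype had 1 array. Under the 8 alternative treatments of values, floor and membership, and with means in place of medians, no median changed sign, and the share of members higher lay between 77.5% (loess correction on level, span 0.3) and 91.9% (without restricted isoforms and non-subunits). With the loess correction the members' median was 0.21, that of complex I 0.21 and that of complex IV 0.048. Then 4 members were at least 1.5-fold higher, beside 7.04% of all genes. With quantile normalization of both columns the members' median was 0.22 and that of complex IV 0.069, and 4 members passed. With 32 added before the logarithm the medians were 0.22 for all members, 0.22 for complex I, 0.15 for complex II and 0.23 for complex III, and 3 members were past 1.5-fold higher and 0 lower. Subtracting the median of all genes left 6 of 80 members at least 1.5-fold higher, against 5.77% of all genes. For quantile normalization and for 32 added, the share of all genes was not calculated, so those counts have no comparison. The threshold itself mattered most for the count of higher members. This count was 42 at a difference of 0.32, against 22.9% of all genes, and 0 at 2-fold, against 139 of 12504 genes. In the other direction 4 members were lower by 0.32 or more, against 16.1%. The 1 lower member, Ndufa4l2, dropped out with a stricter floor (0 lower) and without restricted isoforms (0 lower), by construction. Without those isoforms the median of complex IV was 0.31, and its mean over all 16 genes was 0.063. For the other moves the cause was not tested. Values near background, such as those of Cox7a1, Cox8c and Ndufa4l2, are limited by signal over background, and 1 array per genotype gives no measure of error for any value.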

Other observations

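The X-linked members were compared apart because the arrays also differed in Y-linked transcripts. The X-linked members were Ndufa1, Cox7b and Ndufb11, and all 3 were higher, by 0.53, 0.46 and 0.26. Their median of 0.46 stood beside 0.33 for the 77 members on autosomes above background, of which 66 were higher (85.7%). Of all genes above background 56.4% were higher, and X-linked genes as a whole were not compared. With 3 genes and 1 array per genotype this is a description only.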
